A study of Caenorhabditis elegans with 2 samples.

Results

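acs-2, sodh-1 and icl-1 are 3 metabolic genes of Caenorhabditis elegans whose transcripts were lower in worms given ellagic acid (EA) than in vehicle controls. They were picked by name, 3 of 21163 gene rows in the deposited table, because their library-scaled counts were lower with EA. The lower level is therefore what chose them, and the size of that difference is given here as a description. Whole animals of the wild-type strain N2 were sequenced at day 5 (the labels do not say from which event the days were counted). The EA library came from worms given 100 µM EA, a plant polyphenol, mixed with the vehicle dimethyl sulfoxide into their food, Escherichia coli OP50. The control library came from worms labelled as vehicle control. Each group held 1 library, so no value below has a replicate check, no test was possible, and every interval covers counting error only. How many animals went into each library is not given in the labels.

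Fatty acids must be joined to coenzyme A before they can be oxidised, and acs-2 encodes an acyl-CoA synthetase that carries out this activation for mitochondrial oxidation. sodh-1 encodes a zinc-dependent alcohol dehydrogenase, an enzyme class that oxidises alcohols to aldehydes. icl-1 encodes the worm's fused isocitrate lyase and malate synthase, which together form the glyoxylate bypass of the citric acid cycle and let acetyl-CoA from fat supply sugar synthesis. In C. elegans acs-2 is a known target of the nuclear receptor NHR-49 and is induced by fasting, while sodh-1 and icl-1 are known as genes with more transcript when insulin/IGF-1 signalling is reduced.

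The EA library held 39421614 counts and the control library 41840364 counts, with at least 1 count for 18750 genes in the EA library and 19128 genes in the control library. Levels are given as CPM, which are counts scaled to effective library size. A gene was called lower or higher when its ratio was at least 2-fold and the 95% counting interval of the ratio excluded 1. With a mean CPM of 5 as the minimum, 10610 genes were read, of which 161 were lower with EA (1.52%) and 51 were higher (0.481%). All 3 genes chosen here are among the lower ones, which their selection fixed. Just inside the limit stood nlp-29 (167 counts in the EA library and 348 in the control library), ZC204.12 (273 and 567) and dod-24 (1205 and 2497). Just outside it stood Y62H9A.4 (7103 counts in the EA library and 14713 in the control library), C01G10.4 (133 and 276) and R06A10.1 (172 and 356).

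Transcripts of acs-2 (CELE_F28F8.2) made up 683 counts in the EA library and 3877 counts in the control library. These are 0.00173% of all gene counts with EA (exact binomial 95% interval 0.00161% to 0.00187%) and 0.00927% in the control (0.00898% to 0.00956%). The intervals of the shares do not overlap, and the level with EA was 81.8% below that of the control after scaling. acs-2 lies on the plus strand of chromosome V at 15567394 to 15569897 (build WBcel235), with 1 annotated transcript of 6 exons and 2083 nucleotides. Its log2 ratio of EA to control was -2.45, the fifth lowest of 10432 annotated genes at 5 CPM or more and the lowest of 4320 at 50 CPM or more. In FPKM, the authors' value per transcript length and depth, acs-2 ranked 8794 among all gene rows of the EA library and 3178 in the control library.

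sodh-1 (CELE_K12G11.3, named adh-1 in the RefSeq table) had 1660 counts in the EA library and 8199 counts in the control library. Its share of all gene counts was 0.00421% with EA (0.00401% to 0.00442%) and 0.0196% in the control (0.0192% to 0.0200%). The intervals of the shares again do not overlap, and the scaled level was 4.77-fold lower with EA (4.52 to 5.03). The gene spans 11888248 to 11889650 on the plus strand of chromosome V, with 1 transcript of 3 exons and 1311 nucleotides. At 100 CPM or more its log2 ratio of -2.25 was the lowest of 2069 annotated genes, and its FPKM rank was 4355 in the EA library and 760 in the control library.

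icl-1 (CELE_C05E4.9) was the most abundant of these genes in both libraries by counts, with 6421 counts in the EA library and 18808 in the control library. It held 0.0163% of all gene counts with EA (0.0159% to 0.0167%) and 0.0450% in the control (0.0443% to 0.0456%). The ratio was 2.83-fold lower with EA (2.75 to 2.91), or -1.50 on the log2 scale, which was ranked 32 from the lowest of the 10432 annotated genes and 4 of 2069 at 100 CPM or more. icl-1 lies on the minus strand of chromosome V at 724332 to 728004, with 2 annotated transcripts, 4 exons and a longest transcript of 3120 nucleotides.

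**Figure D1:**
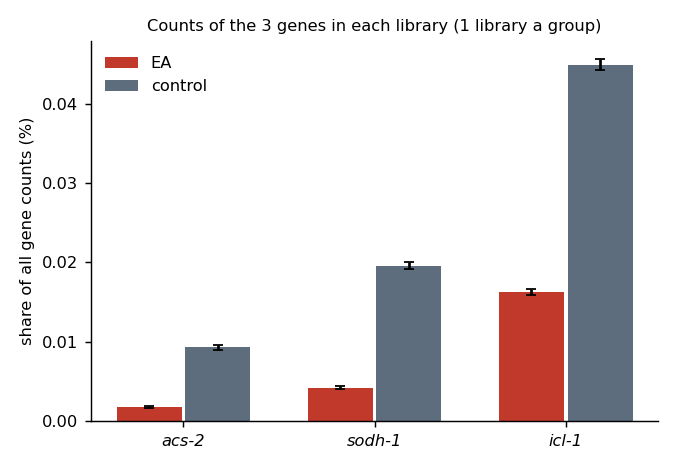
Share of all gene counts (%, vertical axis) taken by acs-2, sodh-1 and icl-1 in the EA library (red, left bar) and the control library (grey, right bar), with exact binomial 95% intervals for counting error. Each EA bar is below its control bar, with shares of 0.00173% and 0.00927% for acs-2, 0.00421% and 0.0196% for sodh-1, and 0.0163% and 0.0450% for icl-1.

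The order of the genes by ratio was the reverse of their order by CPM difference. acs-2 was 76.7 CPM lower with EA, at 17.1 CPM in the EA library and 93.8 CPM in the control library. sodh-1 was 157 CPM lower, at 41.6 CPM with EA and 198 CPM in the control. icl-1 was 294 CPM lower, at 161 CPM with EA and 455 CPM in the control. Per length the order of levels differed between the libraries. In FPKM icl-1 stood above sodh-1 in the EA library (51.1 and 31.0 FPKM), whereas in the control library sodh-1 and icl-1 were close (141 and 138 FPKM). acs-2 was lowest in both, at 8.01 FPKM with EA and 42.0 FPKM in the control. The authors' deposited table calls all 3 genes down, with log2 ratios of -2.46 for acs-2, -2.26 for sodh-1 and -1.50 for icl-1. It calls 517 of 14692 compared genes down (3.52%). Those calls rest on the same counts that chose the 3 genes, so they are not separate support.

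**Figure D2:**
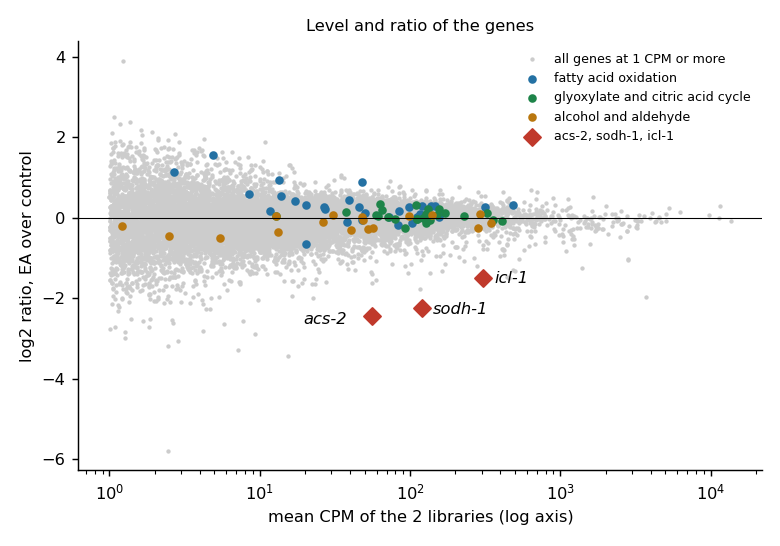
Log2 ratio of EA to control (vertical axis) against mean CPM of both libraries (horizontal log axis) for genes at 1 CPM or more, with list members in colour and acs-2, sodh-1 and icl-1 as red diamonds. The diamonds lie at -2.45, -2.25 and -1.50, below the points of the other genes in the fatty acid oxidation, alcohol and aldehyde, and glyoxylate and citric acid cycle lists, of which the lowest is at -0.66.

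Families and lists were read from a mean of 1 CPM upwards. At that minimum the median log2 ratio over 14221 genes was -0.00, and 3.52% of them were lower and 2.03% higher. In the AMP-binding enzyme family (Pfam), to which the acyl-CoA synthetases belong, 27 of 29 rows reached that level. acs-2 was the only member lower by the size rule, and acs-10 the only one higher. acs-10, an acyl-CoA synthetase family gene, had 234 counts in the EA library and 115 in the control library, 2.11-fold higher with EA (1.68 to 2.66). Without acs-2 the log2 ratios of the other 26 measured rows had 0.08 as their median and ran between -0.89 and 1.07, 15 of them above 0 and 11 below. At the low end C25G6.3 had 87 counts in the EA library and 167 in the control library, a log2 ratio of -0.89.

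Other measured members, with more or fewer counts, lay closer to 0 than acs-2 did. acs-22, a fatty acid transport protein homologue, had 6296 counts in the EA library and 4075 in the control library (log2 ratio 0.68). acs-7 had 3721 counts with EA and 2418 in the control (0.67), and acs-1 had 12337 with EA and 9744 in the control (0.39). acs-19, which encodes acetyl-CoA synthetase, had 12073 counts with EA and 11817 in the control (0.08). On the lower side acs-3 had 198 counts with EA and 318 in the control (-0.63), acs-12 had 848 and 1230 (-0.49), and acs-17 had 1691 and 2214 (-0.34). None of these passed 2-fold. acs-15, under the 1 CPM level, had 52 counts in the EA library and 13 in the control library. newGene_34, a gene model that the authors added and matched to acs-15, had 2 counts with EA and 7 in the control.

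By FPKM acs-2 took 1.00% of the family's summed level in the EA library and 6.09% in the control library, ranking 17 of 29 rows with EA and 6 in the control. Among the 10 rows annotated as long-chain acyl-CoA synthetase in KEGG orthology its share was 3.40% with EA and 17.5% in the control. The other 7 measured rows of that set had log2 ratios between -0.63 and 0.26. The summed CPM of the AMP-binding family without acs-2 was 1905 in the EA library and 1654 in the control library. The lower level of acs-2 was thus not shared by the family's sum.

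**Figure D3:**
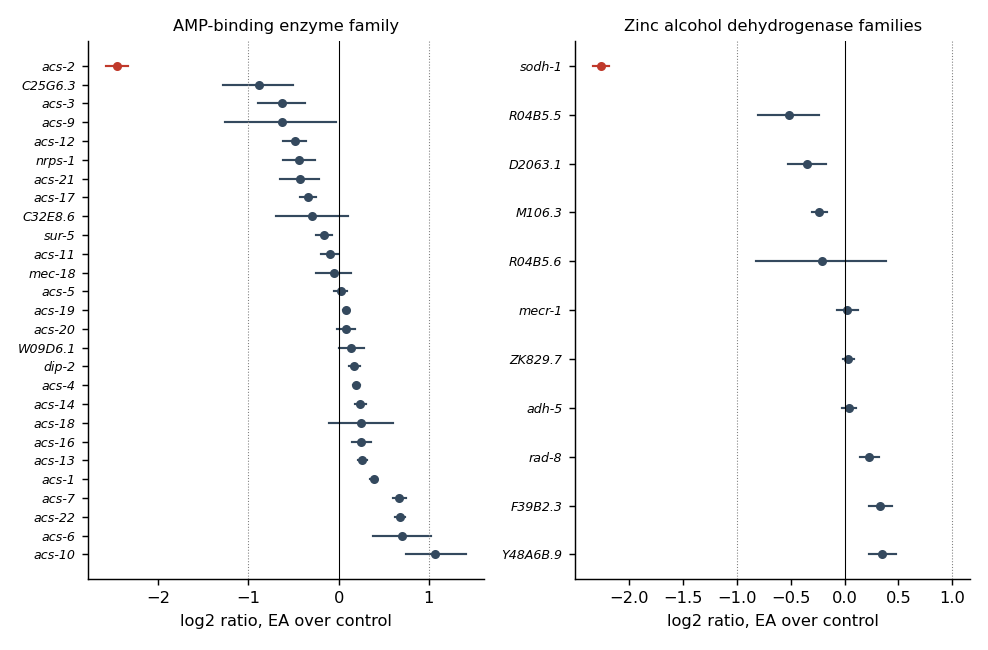
Log2 ratios of EA to control (horizontal axes) with 95% counting intervals for the measured genes (rows), with acs-2 and sodh-1 in red and dotted lines at 2-fold. The left panel holds the AMP-binding enzyme family. The right panel holds the GroES-like alcohol dehydrogenase and zinc-binding dehydrogenase Pfam entries together. The other AMP-binding genes lie between -0.89 and 1.07 and the other genes on the right between -0.52 and 0.35.

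Downstream of activation, fatty acids are carried into mitochondria as carnitine esters and shortened in repeated cycles of dehydrogenation, hydration, a further oxidation and thiolysis. In the fatty acid oxidation list 32 of 35 names matched a row and all 32 rows were measured, of which acs-2 was the only gene lower by the size rule and 2 were higher. Without acs-2 the median log2 ratio of the other 31 was 0.27, with 26 above 0 and 22 with a counting interval wholly above 0. Over all 14221 genes at this minimum 49.7% of log2 ratios were above 0, and 31.9% had an interval wholly above 0. The genes higher by the rule were weakly expressed. acdh-8, an acyl-CoA dehydrogenase gene, had 290 counts in the EA library and 102 in the control library, 2.94-fold higher with EA (2.34 to 3.73). F54C8.1, in the same list, had 148 counts with EA and 70 in the control, 2.19-fold higher (1.64 to 2.95).

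Under 2-fold, the carnitine palmitoyltransferase gene cpt-5 had 2498 counts in the EA library and 1399 in the control library (log2 ratio 0.89). ech-1.1, of the trifunctional protein alpha subunit type, had 704 counts with EA and 380 in the control (0.94), and its more abundant relative ech-1.2 had 21456 with EA and 17976 in the control (0.31). cpt-1 had 13672 counts with EA and 11785 in the control (0.27). At the other end hacd-1, a hydroxyacyl-CoA dehydrogenase gene, had 627 counts with EA and 1029 in the control (-0.66), and the thiolase gene kat-1 had 3124 with EA and 3657 in the control (-0.18). These are small differences beside that of acs-2, and their spread between cultures is unknown.

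Summed by step in FPKM, the 6 carnitine transfer genes reached 242 with EA and 181 in the control. The 9 acyl-CoA dehydrogenase genes summed to 472 with EA and 397 in the control, and the 9 ech genes of hydration to 511 with EA and 440 in the control. The 3 hydroxyacyl-CoA dehydrogenase genes summed to 64.9 with EA and 60.8 in the control, the 2 thiolase genes to 137 in both, and the 2 electron transfer genes to 184 with EA and 164 in the control. The FPKM scale itself ran slightly higher in the EA library, by a median of 0.06 on the log2 scale over 14221 genes. As ratios of summed CPM, which do not carry that shift, the steps ran from -0.06 for thiolysis to 0.35 for carnitine transfer on the log2 scale. acs-2, with -2.45 on the same scale, stood outside that range.

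**Figure D4:**
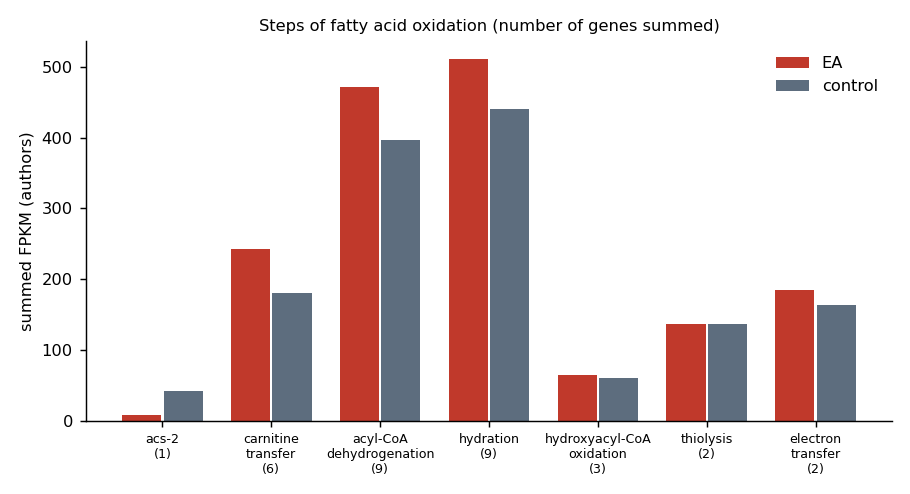
Summed FPKM (the authors' values, vertical axis) of acs-2 and of the genes of each step of fatty acid oxidation, with the number of genes in brackets, in the EA library (red, left bar) and the control library (grey, right bar). acs-2 is at 8.01 with EA and 42.0 in the control, while carnitine transfer is at 242 with EA and 181 in the control and thiolysis at 137 in both.

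The table's KEGG annotation of fatty acid degradation joins acs-2 with sodh-1 in 1 pathway of 66 rows. Of 60 measured rows 2 were lower with EA, acs-2 and sodh-1 themselves, and 2 were higher, acdh-8 and F54C8.1. In the remaining 58 rows 43 log2 ratios were above 0, and their median was 0.26. Over all genes at this minimum 3.52% were lower, 2.03% were higher and 49.7% had a log2 ratio above 0.

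The proteins with a GroES-like alcohol dehydrogenase domain in the Pfam annotation came from 5 rows, and sodh-1 was the most abundant of them per length in both libraries. It made up 71.0% of their summed FPKM in the EA library and 89.9% in the control library. All 4 measured rows had a log2 ratio below 0, and sodh-1 alone passed 2-fold. R04B5.5 had 178 counts with EA and 264 in the control (log2 ratio -0.52), D2063.1 had 465 and 614 (-0.35), and R04B5.6 had 45 and 54 (-0.21). The interval of R04B5.6 included 0. sodh-2, the neighbour of sodh-1, had 6 counts with EA and 5 in the control, too few for a ratio.

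With the 7 rows of the zinc-binding dehydrogenase entry added, 11 of 12 rows were measured, and the 10 other than sodh-1 had a median log2 ratio of 0.03. The 3 measured GroES-like rows among those 10 had a median of -0.35. The zinc-binding entry names a domain, which does not by itself make a row, such as mecr-1, an alcohol dehydrogenase gene. adh-5, the worm's glutathione-dependent formaldehyde dehydrogenase gene of the zinc-binding entry, had 3974 counts in the EA library and 4006 in the control library (0.04). The 10 ranged from R04B5.5 at -0.52 to Y48A6B.9 at 0.35, and the lowest of the zinc-binding dehydrogenase entry was M106.3 at -0.23. Over these 12 rows sodh-1 took 7.80% of the summed FPKM with EA, ranking 7, and 29.4% in the control, ranking 1.

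Aldehydes made by alcohol dehydrogenases are oxidised by aldehyde dehydrogenases, the alh genes. In the alcohol and aldehyde list 18 of 20 rows were measured, sodh-1 was lower and none was higher, and the log2 ratios of the other 17 lay between -0.52 and 0.08 around a median of -0.12. Among 12 measured alh genes 6 had a counting interval wholly below 0 and 1 wholly above, against 32.2% and 31.9% of all genes at this minimum. alh-1, a mitochondrial aldehyde dehydrogenase gene, had 10379 counts with EA and 12853 in the control (-0.26). alh-8, with 13140 counts with EA and 14793 in the control, was at -0.12, and alh-4, with 5706 with EA and 5677 in the control, at 0.06. None of the 12 alh genes passed 2-fold in either direction, unlike sodh-1.

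icl-1 competes with the isocitrate dehydrogenases for isocitrate, and its products enter the citric acid cycle. The glyoxylate and citric acid cycle list had 25 rows, all measured, and icl-1 alone passed the rule, as lower. The other 24 log2 ratios had 0.05 as their median and lay between -0.24 (sdha-1, a succinate dehydrogenase subunit gene) and 0.34 (sdha-2, its relative). cts-1, citrate synthase, had 15906 counts in the EA library and 17388 in the control library (-0.08). The aconitase genes aco-1 and aco-2, whose enzymes make isocitrate, were both at -0.05. idh-1 was at -0.14 and idh-2 at 0.13, and the malate dehydrogenase genes mdh-1 and mdh-2 at 0.05 and 0.21.

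The 6 isocitrate dehydrogenase genes summed to 297 FPKM with EA and 290 FPKM in the control. Of the FPKM of these genes and icl-1 together, icl-1 made up 14.7% with EA and 32.2% in the control. It ranked 4 of 7 in the EA library and 1 in the control library. In the KEGG set of glyoxylate and dicarboxylate metabolism 40 of 41 rows were measured and 2 were lower, icl-1 and gcsh-1, a glycine cleavage system gene with 72 counts with EA and 153 in the control. gcsh-1 was just past 2-fold, and it did not pass with scaling to total counts, a prior count of 5 or the length trend removed. Over all genes at this minimum 3.52% were lower and 2.03% higher. In the KEGG set 2 were higher, gln-2 and an added gene model described next. The glutamine synthetase gene gln-2 had 254 counts with EA and 90 in the control.

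The table also holds newGene_80, a gene model that the authors added and matched to icl-1, with a malate synthase domain and no position. It had 155 counts in the EA library and 42 in the control library, 3.82-fold higher with EA (2.70 to 5.51), the opposite direction to icl-1. Its FPKM was 1.27 with EA and 0.313 in the control. Summed with icl-1 the counts were 6576 with EA and 18850 in the control, 2.77-fold lower with EA, of which newGene_80 made up 2.36% with EA and 0.223% in the control. Of 423 added models at 1 CPM or more, 21 were lower and 21 higher with EA. Over all 14221 genes at this minimum 501 were lower (3.52%) and 289 higher (2.03%). Added models were thus called more often than genes in general, in both directions. How reads that match both models were counted is not given, so the split between them is uncertain.

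Glyoxylate bypass products can feed gluconeogenesis and, in worms, trehalose synthesis. None of the 14 measured genes of that list passed the rule in either direction, and the median log2 ratio was -0.05. pck-2, a phosphoenolpyruvate carboxykinase gene, had 16890 counts in the EA library and 20224 in the control library (-0.21). pck-1 was at -0.11, the pyruvate carboxylase gene pyc-1 at -0.20 and the fructose bisphosphatase gene fbp-1 at -0.05. The trehalose synthase genes tps-1 and tps-2 were at -0.07 and 0.06. The weakly expressed pck-3, with 116 counts with EA and 64 in the control, was highest at 0.90.

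**Figure D5:**
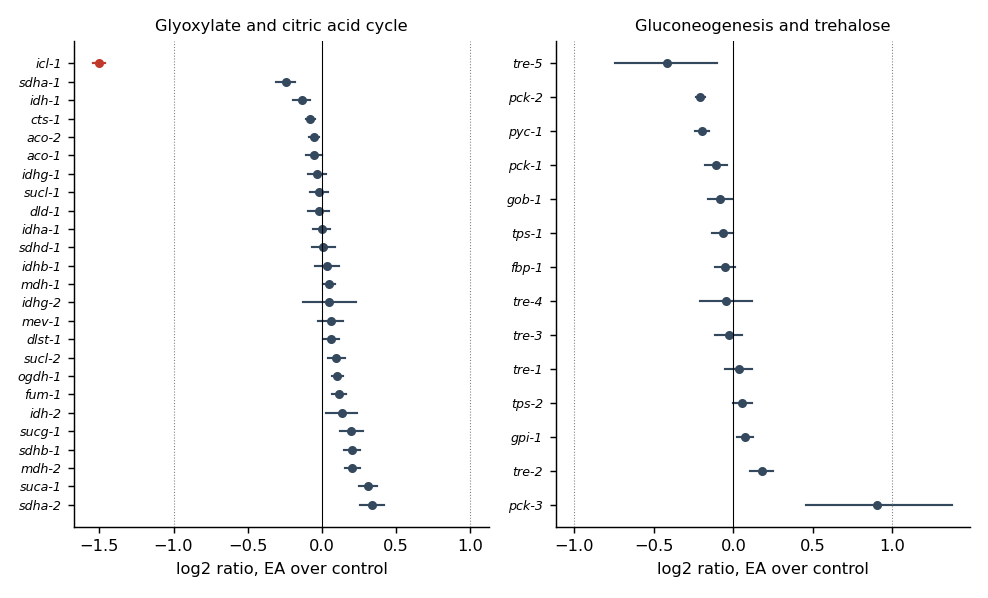
Log2 ratios of EA to control (horizontal axes) with 95% counting intervals for the genes (rows) of the glyoxylate and citric acid cycle list (left) and the gluconeogenesis and trehalose list (right), with icl-1 in red and dotted lines at 2-fold. icl-1 is at -1.50, and the other 24 genes on the left lie between -0.24 and 0.34.

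The regulator list holds factors known to act on fat metabolism, fasting or insulin/IGF-1 signalling. None of the 17 measured genes of the regulator list passed the rule, and their log2 ratios lay between -0.31 (nhr-79) and 0.30 (nhr-13) around a median of 0.02. nhr-49 had 5274 counts with EA and 5522 in the control (-0.02). The Mediator subunit gene mdt-15, which acts with NHR-49, was at -0.05, and daf-16, the FOXO factor of insulin/IGF-1 signalling, was also near 0, at -0.04. hlh-30, a TFEB homologue linked to fasting, was at -0.23. These are transcript levels and not the activity of the factors.

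In the list of genes responsive to fasting or NHR-49, 17 of 20 rows were measured, and 3 were lower: acs-2, icl-1 and the lipase gene lipl-2 (32 counts with EA and 81 in the control). The selection fixed the call of acs-2 and icl-1. Without them 1 of the other 15 was lower, against 3.52% of all genes at 1 CPM or more. Those 15 went both ways, with -0.10 as the median of their log2 ratios. With a trend on transcript length removed that median was 0.02, so its direction turned. fat-6, a stearoyl-CoA desaturase gene, had 5669 counts with EA and 11543 in the control (-0.98), while its close relative fat-7 had 1785 and 1359 (0.44). These paralogues are similar, so reads could be split between them. In the list of genes with raised transcripts in daf-2 insulin receptor mutants, 19 of 20 rows were measured. There 7 were lower with EA, sodh-1 and icl-1 included, with a median of -0.48. Over all genes at this minimum 3.52% were lower. Without both genes 5 of 17 were lower (dod-3, hsp-12.6, mtl-1, mtl-2 and hsp-16.11) and the median was -0.32. Of the same 17, 11 had intervals wholly below 0 and 5 wholly above, against 32.2% and 31.9% of all genes at this minimum. Their log2 ratios were above 0 in 6. With the length trend removed 4 of the 19 were lower, sodh-1 and icl-1 still included. The medians were then -0.29 with both genes and -0.20 without them. The weakly expressed dod-3, of that list, had 19 counts with EA and 132 in the control, 6.71-fold lower (4.13 to 11.5).

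Markers of cell types give the setting of these values. The labelled tissue is the whole animal, and all 6 intestine markers, 4 body wall muscle markers, 4 neuron markers and 4 germline markers were measured. Intestine markers summed to 1825 CPM in the EA library and 1757 CPM in the control library, with log2 ratios of -0.27 to 0.42. Muscle markers summed to 1136 CPM with EA and 1130 CPM in the control, and neuron markers to 477 CPM with EA and 498 CPM in the control. All 4 neuron markers had ratios below 0 (-0.27 to -0.02), 3 of them with intervals wholly below 0, against 32.2% of all genes at 1 CPM. Germline markers summed to 1049 CPM with EA and 848 CPM in the control, all 4 with ratios above 0 (0.09 to 0.45). The 2 male markers summed to 6.77 CPM with EA and 5.15 CPM in the control. Of 4 hypodermis markers only col-19 reached 1 CPM (-0.05), and no listed marker was at 0. The hypodermis sum was 478 CPM with EA and 495 CPM in the control. The neuron and hypodermis sums were slightly lower with EA, with only 1 of 4 hypodermis markers measured. The muscle sums were close, with 2 of 4 intervals wholly below 0 and 2 wholly above. The intestine, germline and male sums were higher with EA. The part of any of these cell types in the result was not tested. In whole animals fewer cells of a type and less RNA per cell cannot be told apart.

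The chromosomal neighbours of acs-2 and sodh-1 did not share the size of their ratios, apart from genes of very few counts. Several ran lower to a smaller extent, among them glb-14 near acs-2 (-0.30, interval including 0) and sulp-4 near sodh-1 (-0.33). fbxa-95 ran higher. All listed neighbours of icl-1 had few counts, so they say little about its ratio. Next to acs-2, acr-18 had 531 counts in the EA library and 637 in the control library (log2 ratio -0.21). On the other side lsm-5, which starts 482 bases beyond acs-2, had 730 counts with EA and 1088 in the control (-0.52, or 0.15 with a trend on transcript length removed). The gene after it, fbxa-95, had 1743 counts with EA and 1384 in the control (0.38). sodh-2 overlaps sodh-1 by 70 bases on the opposite strand (11889581 to 11891243), and sulp-5, on the other side, had 93 counts with EA and 125 in the control. Whether counting used strand is not given, but 6 counts in the EA library and 5 in the control library for sodh-2 are small beside sodh-1. Next to icl-1, fbxb-72 had 44 counts with EA and 46 in the control, and srh-2, 296 bases away on the opposite strand, had 5 with EA and 39 in the control.

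The annotated genes most alike in level in both libraries were found by distance in the plane of log2 CPM in EA and log2 CPM in control, over 1 library each. For acs-2 these were C06B3.6 (distance 0.69), clec-17, a C-type lectin gene (0.82), and R11F4.1 (0.82). R11F4.1 had 992 counts with EA and 2519 in the control. For sodh-1 they were Y94H6A.10 (0.37), scl-2 (0.64) and ZC373.2 (0.76), and Y94H6A.10 had 2109 counts with EA and 7424 in the control. For icl-1 they were R107.5 (0.24), Y62H9A.4 (0.38) and the ribosomal protein gene rpl-38 (0.55). R107.5 had 6754 counts with EA and 16023 in the control, and rpl-38 had 9001 with EA and 15878 in the control. After a trend of the ratio on transcript length was removed, the log2 ratio of the short rpl-38 became -0.13, whereas that of icl-1 was -1.55.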

How the data were processed

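Whole-animal RNA of 1 EA library and 1 control library was compared; groups came from the sample titles. The authors deposited raw counts per gene and FPKM, and their own log2 ratio and call per gene (edgeR, without a version, per the submitters' processing notes). The reference was WBcel235, per the labels' protocols. The aligner, the counter, its strand setting and its treatment of shared reads were not given in the sources used here. The table holds 19984 annotated rows and 1179 gene models added by the authors.

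Scaling used TMM in edgeR 4.0.16 (R 4.3.3), with factors of 1.01 for EA and 0.988 for control. Log2 ratios used a prior count of 0.5, with exact conditional binomial (Clopper-Pearson) 95% intervals in SciPy 1.17.1. At these depths 5 CPM equals 199.5 counts in the EA library and 206.7 counts in the control library. A level of 3 counts equals 0.0752 CPM in EA and 0.0726 CPM in control. Counts of 0 were kept at 0 CPM, and only the prior count entered their log2 ratios. With 1 library per group no p-value was computed. DESeq2 1.42.0 size factors, total counts, upper quartile scaling, other count minimums, a prior count of 5, the authors' FPKM with a pseudocount of 0.1 and a lowess trend on transcript length (statsmodels 0.14.6, span 0.3) were alternatives. Coordinates, counted from 1, come from the RefSeq table (19979 rows matched) and lengths from Ensembl 115 (19961 rows), both of WBcel235. Calculations ran in Python 3.11.15 and were tested on simulated data.

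The genes and lists were chosen with earlier results of these data known. Named genes were drawn from the 3 genes and from list or family genes past 2-fold at 5 CPM. Other sources were the most abundant and most different genes of each list, chromosomal neighbours and the nearest genes in level. The regulators and the genes beside the 2-fold limit completed the rule. Genes named outside that rule (such as acdh-8, F54C8.1, acs-10, acs-15, gcsh-1, gln-2, dod-3, lipl-2, C25G6.3 and newGene_80), the KEGG sets and the step sums were picked after the table was seen. Of 186 list names 6 matched no row. One name was dropped from the oxidation list, since the deposited annotation gives it another function.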

Additional observations from a re-analysis of the deposited data

How the results depend on the processing

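Of 77 values under other settings, 70 kept their direction and size, 7 moved and 0 reversed. Most of them are ratios of the 3 chosen genes, or counts whose only lower gene is one of these. The selection of strongly lower genes made a change in such values unlikely, so the tally says little beyond that. The log2 ratio of icl-1 was -1.43 from the authors' FPKM and -1.55 with the length trend removed, against -1.50. Both were counted as moved. From the FPKM acs-2 was at -2.37, against -2.45, and was not counted as moved. These labels therefore do not rank the genes by stability. Genes at least 2-fold lower numbered 1541 with no filter on low counts, 52 at a mean of at least 20 CPM and 103 with the length trend removed, against 161. Those higher numbered 944 with no filter and 1 at 20 CPM, against 51, and 62 with the length trend removed. The cause of the length trend was not tested. The 6 counts among these of lower genes kept their values. They cover the AMP-binding family, both dehydrogenase Pfam entries, and the fatty acid oxidation, alcohol and aldehyde, glyoxylate and citric acid cycle, and gluconeogenesis lists. The gluconeogenesis list had 0 lower genes. In each of the others the only lower gene was acs-2, sodh-1 or icl-1 itself. Alternatives for the other list counts and for medians were chosen after seeing the data. Of 140 such counts 125 stayed within 1.5 times and 15 moved, among them the daf-2 list (7 lower, 3 at 20 CPM and 4 with the length trend removed). Without a filter the AMP-binding family had 2 higher genes, against 1, and the alcohol and aldehyde list 1, against 0. At 20 CPM none of the AMP-binding or fatty acid oxidation genes was higher. With the length trend removed, medians turned to 0.0237 for the fasting list without the 3 genes, -0.0382 for regulators (against 0.0179), and -0.0216 for KEGG glyoxylate and dicarboxylate metabolism (against 0.0185; -0.00436 without icl-1, against 0.0239). No paired analysis was possible because each group has 1 library. Without replicates, depth limits only counting error, and the spread between cultures is unknown.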
